A study of Mus musculus with 9 samples.

Results

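The genes described here are 10 early stress genes: the immediate early genes Fos, Fosb, Jun, Junb, Egr1, Atf3, Ier3, Dusp1 and Nr4a1, and the heat shock gene Hspa1b. They were chosen by name, as the probe sets annotated to a single one of these symbols, and make up 10 of 18194 genes measured. Together they have 13 of the 45101 probe sets, with 3 for Hspa1b, 2 for Jun and 1 for each other gene, and the brightest was used where a gene had several. RNA was profiled on 9 arrays in 3 groups of 3: ZsG plus cells, ZsG minus mTEC and ZsG minus cTEC. ZsG is ZsGreen, a green fluorescent protein placed at the start codon of Tslp, an epithelial cytokine gene, on a bacterial artificial chromosome carried by transgenic mice. All 3 groups are labelled C57BL/6, and the mice were 8 to 20 weeks old. cTEC and mTEC usually stand for cortical and medullary thymic epithelial cells. The labels name no treatment of the animals, and they do not say whether animals were pooled or from which compartment the ZsG plus cells came. The cell type field reads keratinocytes for every array, against the titles, which define the groups used here.

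Immediate early genes are transcribed within minutes of a stimulus from factors already present in the cell, so that no new protein is needed for their induction. Growth factors, cytokines, cell stress and the enzymatic release of cells from tissue are known inducers, acting through MAP kinases on serum response factor, its ternary complex partners and CREB. Fos and Jun proteins pair to form AP-1, Dusp1 switches the MAP kinases off again, and heat shock factor drives Hspa1b when proteins unfold.

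The medullary and cortical titles were checked against 10 medullary and 12 cortical markers, while the ZsG plus title names no compartment. Aire and Fezf2, regulators of medullary epithelium, had levels (geometric means of intensity over 3 arrays) of 16990 and 22682 for ZsG plus and 19854 and 19026 for ZsG minus mTEC, against 1973 and 1461 in ZsG minus cTEC. The cortical protease gene Prss16 stood at 1173 for ZsG plus and 2963 for ZsG minus mTEC, against 48742 in ZsG minus cTEC. Not every marker followed the titles. The listed cortical markers Krt8 and Foxn1 had levels of 40619 and 2838 for ZsG minus mTEC, against 18476 and 1523 for ZsG minus cTEC. Dll4, also listed as cortical, stood at 502 against 635, and the medullary marker Krt5 at 13137 against 13398. The ZsG plus arrays agreed least with each other: Pearson's r across genes, which are not independent replicates, was 0.595 to 0.676 within ZsG plus, 0.832 to 0.844 within ZsG minus mTEC and 0.849 to 0.883 within ZsG minus cTEC. Gapdh signal from the 3' end over that from the 5' end, which rises with RNA breakage and short amplification, was 6.71 to 10.6 in the ZsG plus replicates, 4.66 to 5.97 in those of ZsG minus mTEC and 4.55 to 5.60 in those of ZsG minus cTEC. The same ratio for actin overlapped between the groups, at 0.796 to 1.21 for ZsG plus, 0.874 to 1.07 for ZsG minus mTEC and 0.971 to 1.14 for ZsG minus cTEC. The PheX and DapX probe sets, controls from bacteria, read 3.77 to 341 over the 9 arrays, and readings inside that range are called near background here. No scan date or batch was given in the sources used here.

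Sequence upstream of the start site was found for 9 of the 10 genes in the RefSeq promoter table of GRCm38.p6. The 250 bases before the start are printed for 4 of them: Ier3, whose level differed most between groups, Nr4a1, which varied most within ZsG plus, and Fos and Hspa1b, which lay at opposite ends of the range on the same ZsG plus array. Capitals mark the letters TGACG of the cyclic AMP response element in Fos and Nr4a1 on either strand, TATAAA in Fos, CCAAT on either strand in Ier3 and Hspa1b, the kappaB site in Ier3, and the heat shock element core GAANNTTC in Hspa1b. The windows are chr17:35821463-35821712 (+ strand) for Ier3, chr15:101266596-101266845 (+ strand) for Nr4a1, chr12:85473640-85473889 (+ strand) for Fos and chr17:34959239-34959488 (- strand) for Hspa1b.
Ier3: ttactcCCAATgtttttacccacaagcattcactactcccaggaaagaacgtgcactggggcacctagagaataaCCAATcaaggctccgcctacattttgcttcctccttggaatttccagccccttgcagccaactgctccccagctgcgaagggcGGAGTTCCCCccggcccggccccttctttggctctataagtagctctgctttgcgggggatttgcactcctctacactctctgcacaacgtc
Nr4a1: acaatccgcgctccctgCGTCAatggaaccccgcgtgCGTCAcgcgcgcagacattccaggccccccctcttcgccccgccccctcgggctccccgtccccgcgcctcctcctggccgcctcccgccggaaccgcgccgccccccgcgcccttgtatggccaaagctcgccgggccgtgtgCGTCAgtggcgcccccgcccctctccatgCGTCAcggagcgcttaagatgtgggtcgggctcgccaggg
Fos: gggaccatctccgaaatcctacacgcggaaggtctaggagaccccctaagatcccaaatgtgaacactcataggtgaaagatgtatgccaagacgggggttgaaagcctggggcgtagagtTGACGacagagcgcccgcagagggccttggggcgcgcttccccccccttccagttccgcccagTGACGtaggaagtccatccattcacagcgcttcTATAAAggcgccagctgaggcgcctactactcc
Hspa1b: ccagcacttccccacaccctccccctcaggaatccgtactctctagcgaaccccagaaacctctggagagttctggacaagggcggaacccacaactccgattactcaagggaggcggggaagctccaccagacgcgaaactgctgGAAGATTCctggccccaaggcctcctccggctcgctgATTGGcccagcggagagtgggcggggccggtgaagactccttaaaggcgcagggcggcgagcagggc

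TGACG occurred on either strand in 6 of the 9 windows, against 17.8% of all 32851 windows of that length, with 4 matches in Nr4a1, 3 in Dusp1, which overlap in part, and 2 in Fos. The full palindrome TGACGTCA occurred in Dusp1 alone among the 9, and in 1.55% of all windows. GAANNTTC was found in Hspa1b and Jun, and in 6.69% of all windows, while TTCNNGAA, its other phase, was found in none of the 9 and in 7.17% of all. TATAAA, searched on the transcribed direction only, was found in Fos alone and in 7.59% of all windows, and the EGR site GCGNGGGCG in Fosb and Nr4a1 and in 4.7% of all. The kappaB site, searched by its consensus on both strands, was present in Ier3, Fos and Fosb and in 3.90% of all windows. CCAAT was found in 4 of the 9 and in 33.8% of all windows. The AP-1 site TGANTCA and the CArG box bound by serum response factor were found in none of the 9 windows, and in 6.75% and 1.47% of all. These matches describe the letters of a short window and carry no statement about binding.

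None of the 4 AP-1 subunits passed the test in any comparison. Fos, which encodes a leucine zipper factor that must pair with a Jun protein to bind DNA, read 27859, 22852 and 10688 in the ZsG plus replicates. The readings were 26947, 34567 and 26555 in those of ZsG minus mTEC and 36748, 32637 and 43837 in those of ZsG minus cTEC. Every ZsG plus array thus lay below every ZsG minus cTEC array, and replicate 3 of ZsG plus was the lowest of all 9. Relative to the cortical group the log2 difference was −0.98 ± 0.56, and relative to ZsG minus mTEC it was −0.62 ± 0.56, with standard errors after ± (limma adjusted p = 0.378 and 0.649). Without replicate 3 of ZsG plus they were −0.57 and −0.21, and −0.44 and −0.087 after median centring, which sets the median of every array to the same value. Quantile normalization moved them the other way, to −1.33 and −0.83. In these bulk samples fewer cells expressing a gene and less RNA per cell cannot be told apart.

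Fosb, the closest relative of Fos among the 10 genes, was highest on 1 cortical array. Its readings were 10010, 13505 and 11472 in the ZsG plus replicates, 11989, 12074 and 12057 in those of ZsG minus mTEC, and 14432, 13795 and 29937 in those of ZsG minus cTEC. The lowest cTEC reading lay just above the highest ZsG plus reading, so the separation of these groups was narrow. The difference was −0.65 ± 0.54 for ZsG plus versus ZsG minus cTEC and −0.59 ± 0.54 with ZsG minus mTEC against ZsG minus cTEC (limma adjusted p = 0.551 and 0.792). Without replicate 3 of ZsG minus cTEC they were −0.29 and −0.23, and median centring gave −0.11 for the first. With quantile normalization the first was −0.95.

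Jun encodes the main partner of Fos and can also bind DNA as a homodimer. It read 79465, 76172 and 67481 in the ZsG plus replicates, 54800, 55393 and 52095 in those of ZsG minus mTEC, and 50883, 51563 and 64703 in those of ZsG minus cTEC. All ZsG plus readings were above all others, by 0.46 ± 0.49 over ZsG minus mTEC and 0.42 ± 0.49 over ZsG minus cTEC on the log2 scale (limma adjusted p = 0.698 and 0.676). Its other probe set gave 0.15 ± 0.52 and −0.03 ± 0.52 in a fit of all 34958 probe sets with 1 symbol, so the separation was seen with 1 of 2 probe sets, and the differences were 0.036 and −0.10 with quantile normalization and 0.99 and 0.96 with median centring.

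Junb, an AP-1 subunit that often opposes Jun, was partly near background. It read 688, 73.8 and 339 in the ZsG plus replicates, 520, 425 and 335 in those of ZsG minus mTEC, and 518, 411 and 646 in those of ZsG minus cTEC. The ZsG plus arrays held both its highest and its lowest reading, and the groups overlapped in every comparison. The differences were −0.70 ± 0.81 and −1.0 ± 0.81 for ZsG plus against ZsG minus mTEC and ZsG minus cTEC (limma adjusted p = 0.722 and 0.537). Without replicate 2 of ZsG plus they were 0.20 and −0.097, and without replicate 1 they were −1.41 and −1.71. They came to −0.16 and −0.43 with quantile normalization, −0.17 and −0.46 with median centring and −0.41 and −0.66 with an offset of 100.

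Egr1, a zinc finger factor whose own transcript is a usual readout of ERK activity, was brightest in ZsG plus. Its readings were 65337, 65309 and 105531 in the ZsG plus replicates, 51730, 45634 and 40504 in those of ZsG minus mTEC, and 45759, 44124 and 56543 in those of ZsG minus cTEC. Every ZsG plus array exceeded every other array, with replicate 3 well above the others. The differences were 0.75 ± 0.51 over ZsG minus mTEC and 0.66 ± 0.51 over ZsG minus cTEC, with 95% intervals of −0.41 to 1.90 and −0.49 to 1.81 (limma adjusted p = 0.545 and 0.518). They were 0.34 and 0.12 with quantile normalization and 1.28 and 1.20 with median centring, and the second was 0.43 without replicate 3 of ZsG plus. The reporter-negative groups differed by −0.09 ± 0.51 (limma adjusted p = 0.988).

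Atf3, a stress-induced leucine zipper factor that mostly represses, was dimmest in ZsG minus mTEC. It read 27395, 14410 and 25013 in the ZsG plus replicates, 9746, 18872 and 10713 in those of ZsG minus mTEC, and 25263, 23266 and 24616 in those of ZsG minus cTEC. The cortical arrays lay close together and above all ZsG minus mTEC arrays, while ZsG plus spanned both. The difference was −0.96 ± 0.55 with ZsG minus mTEC against ZsG minus cTEC and 0.78 ± 0.55 for ZsG plus versus ZsG minus mTEC (limma adjusted p = 0.561 and 0.558), and the second was 1.31 with median centring. Set against the cortical group, ZsG plus differed by −0.18 ± 0.55, or 0.36 with each array centred on its median (limma adjusted p = 0.884 and 0.768). With quantile normalization that difference was −0.57.

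Nr4a1 encodes an orphan nuclear receptor that is also induced by antigen receptor signals in thymocytes. It read 2966, 987 and 12856 in the ZsG plus replicates, 1931, 2374 and 1228 in those of ZsG minus mTEC, and 7009, 4897 and 5634 in those of ZsG minus cTEC. The ZsG plus arrays held both extremes and covered a 13.0-fold range, whereas the reporter-negative groups did not overlap. The level was 1779 in ZsG minus mTEC, against 5783 in ZsG minus cTEC, a log2 difference of −1.70 ± 0.88 with a 95% interval of −3.68 to 0.28 (limma adjusted p = 0.501, unadjusted p = 0.0841). That error is pooled over all 9 arrays and so includes ZsG plus. Its SD was 1.86 on the log2 scale, against 0.49 for ZsG minus mTEC and 0.26 for ZsG minus cTEC. With only the 6 arrays of the reporter-negative groups the limma adjusted p was 0.0839. ZsG plus differed from ZsG minus mTEC by 0.91 ± 0.88 and from ZsG minus cTEC by −0.79 ± 0.88 (limma adjusted p = 0.666 and 0.665). Without replicate 3 of ZsG plus these were −0.06 and −1.76, and without replicate 2 they were 1.80 and 0.09, so single ZsG plus arrays set both values. Median centring gave 1.45 and −0.25, and array weights 0.59 for the first.

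Dusp1 encodes a nuclear phosphatase that inactivates p38, JNK and ERK. It read 21612, 18641 and 39341 in the ZsG plus replicates, 21062, 22002 and 25281 in those of ZsG minus mTEC, and 25558, 27838 and 26255 in those of ZsG minus cTEC. Replicate 3 of ZsG plus was again the highest and replicate 2 the lowest of all 9. The differences were 0.15 ± 0.53, −0.08 ± 0.53 and −0.22 ± 0.53 for ZsG plus versus ZsG minus mTEC, ZsG plus versus ZsG minus cTEC and the medullary against the cortical reporter-negative group (limma adjusted p from 0.926 to 0.958). The first was −0.13 with quantile normalization and 0.68 with median centring. The second was −0.49 and 0.46 under the same settings.

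Ier3, an early gene that modulates ERK signalling and survival, was the member that fell in ZsG plus relative to ZsG minus cTEC. It read 1802, 1461 and 1879 in the ZsG plus replicates, 1691, 4167 and 2593 in those of ZsG minus mTEC, and 12670, 9371 and 11390 in those of ZsG minus cTEC. All 6 ZsG plus and ZsG minus mTEC readings lay below all 3 cortical readings, and the ZsG plus arrays had an SD of 0.19 on the log2 scale. The level was 1704 in ZsG plus, against 11058 in ZsG minus cTEC, a log2 difference of −2.70 ± 0.55 with a 95% interval of −3.94 to −1.46 (limma adjusted p = 0.0447), or 6.49-fold lower. In ZsG minus mTEC the level was 2634, a difference of −2.07 ± 0.55 from ZsG minus cTEC, or 4.20-fold lower, which did not pass (limma adjusted p = 0.141, unadjusted p = 0.00424). With only the 6 arrays of these groups the limma adjusted p was 0.0673. ZsG plus and ZsG minus mTEC differed by −0.63 ± 0.55, with a 95% interval of −1.87 to 0.61 (limma adjusted p = 0.634). That value was −0.95 without replicate 1 and −0.30 without replicate 2 of ZsG minus mTEC, and −0.095 with median centring. The 2 contrasts against the cortex share its 3 arrays.

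The call of Ier3 held in 7 of 16 alternative settings, with an adjusted p of 0.0115 to 0.173 and a difference of −2.82 to −2.16 over them. It was lost when any 1 ZsG minus cTEC array was left out (limma adjusted p = 0.173, 0.142 and 0.135 without replicates 1, 2 and 3) and kept when any 1 ZsG plus array was. The medullary difference passed in 2 of 16 settings and ran from −2.40 to −1.75. Markers of some other cells moved with the same contrast. Those of thymocytes and fibroblasts had median log2 differences of −3.06 and −2.67 in ZsG plus versus ZsG minus cTEC. The dendritic cell and macrophage, B cell, erythroid and endothelial lists had 0.38, 0.60, 0.67 and −0.15. The 11 measured thymocyte and T cell markers summed to 9733 to 13136 in the ZsG plus replicates and 8258 to 14015 in those of ZsG minus mTEC, against 54568 to 79998 in those of ZsG minus cTEC. Of these 11, 6 had a level near background for ZsG plus, 5 for ZsG minus mTEC and 1 for ZsG minus cTEC. The 8 measured fibroblast markers summed to 4596 to 25987, 6545 to 12807 and 35192 to 54280 in the same order, with 3, 3 and 2 near background. No marker was listed at 0, and their part in the Ier3 difference, or in those of Fos, Fosb and Nr4a1 from the same cortical arrays, was not tested.

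**Figure D1:**
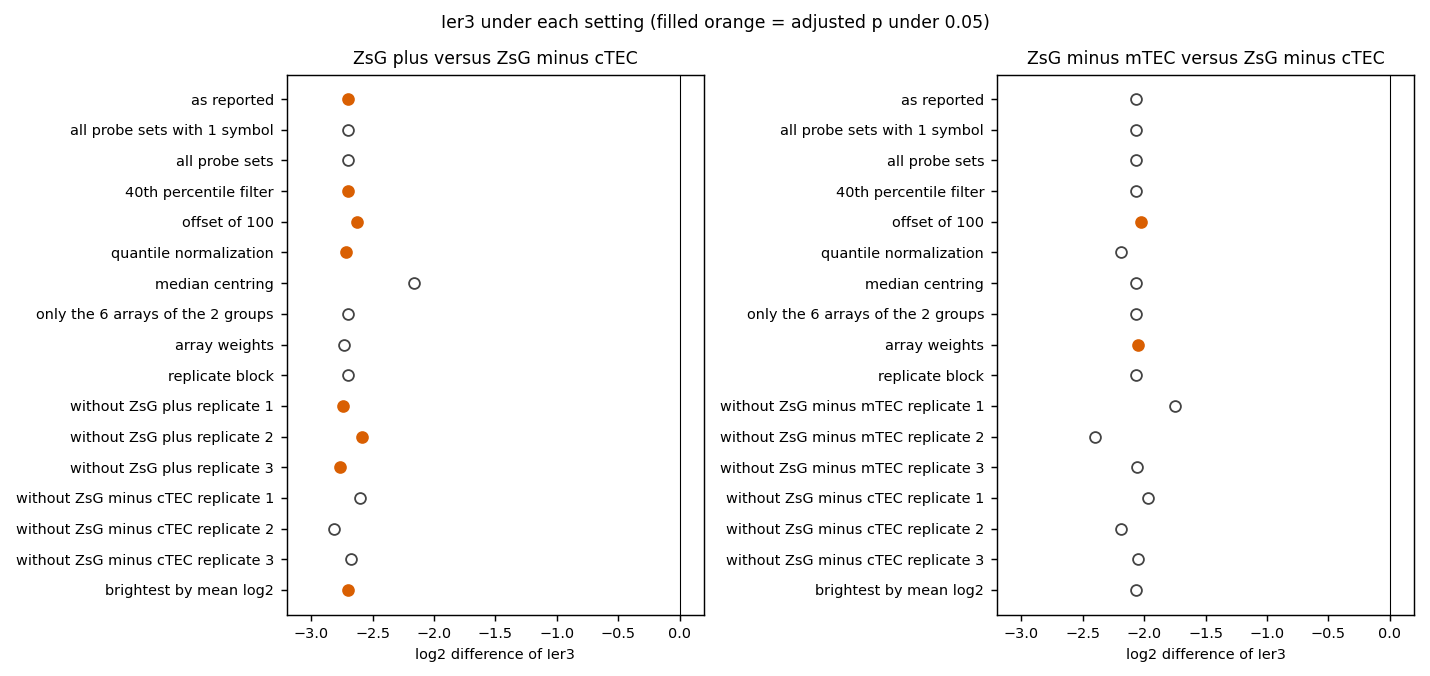
Log2 difference of Ier3 (x axis) under each setting (y axis), for ZsG plus versus ZsG minus cTEC on the left and the medullary against the cortical reporter-negative group on the right. Filled orange points have an adjusted p under 0.05. All points lie below 0, between −2.82 and −2.16 on the left and between −2.40 and −1.75 on the right.

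Hspa1b encodes an inducible Hsp70 chaperone. Its brightest probe set read 35429, 38605 and 68317 in the ZsG plus replicates, 40545, 33954 and 45442 in those of ZsG minus mTEC, and 37860, 42139 and 36558 in those of ZsG minus cTEC. On this probe set replicate 3 of ZsG plus stood highest and the other 8 arrays lay close together. The group differences were 0.19 ± 0.52, 0.23 ± 0.52 and 0.03 ± 0.52 for ZsG plus versus ZsG minus mTEC, ZsG plus versus ZsG minus cTEC and the medullary against the cortical reporter-negative group (limma adjusted p from 0.846 to 0.997), and all 3 were below 0 with quantile normalization, at −0.12, −0.25 and −0.13. Median centring gave 0.73, 0.77 and 0.04. The other probe sets of the gene read 14302, 8643 and 38956, and 13167, 6190 and 37649, in the ZsG plus replicates, with replicate 3 again highest. Hspa1a, the neighbouring near-identical copy, read 22627, 18288 and 64509 in the ZsG plus replicates, 17475, 21388 and 25371 in those of ZsG minus mTEC, and 20341, 21288 and 22059 in those of ZsG minus cTEC. The promoter windows of the copies were the same at 247 of 250 positions, and signal of their probe sets may be shared, so the values cannot be assigned to 1 copy with certainty.

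**Figure D2:**
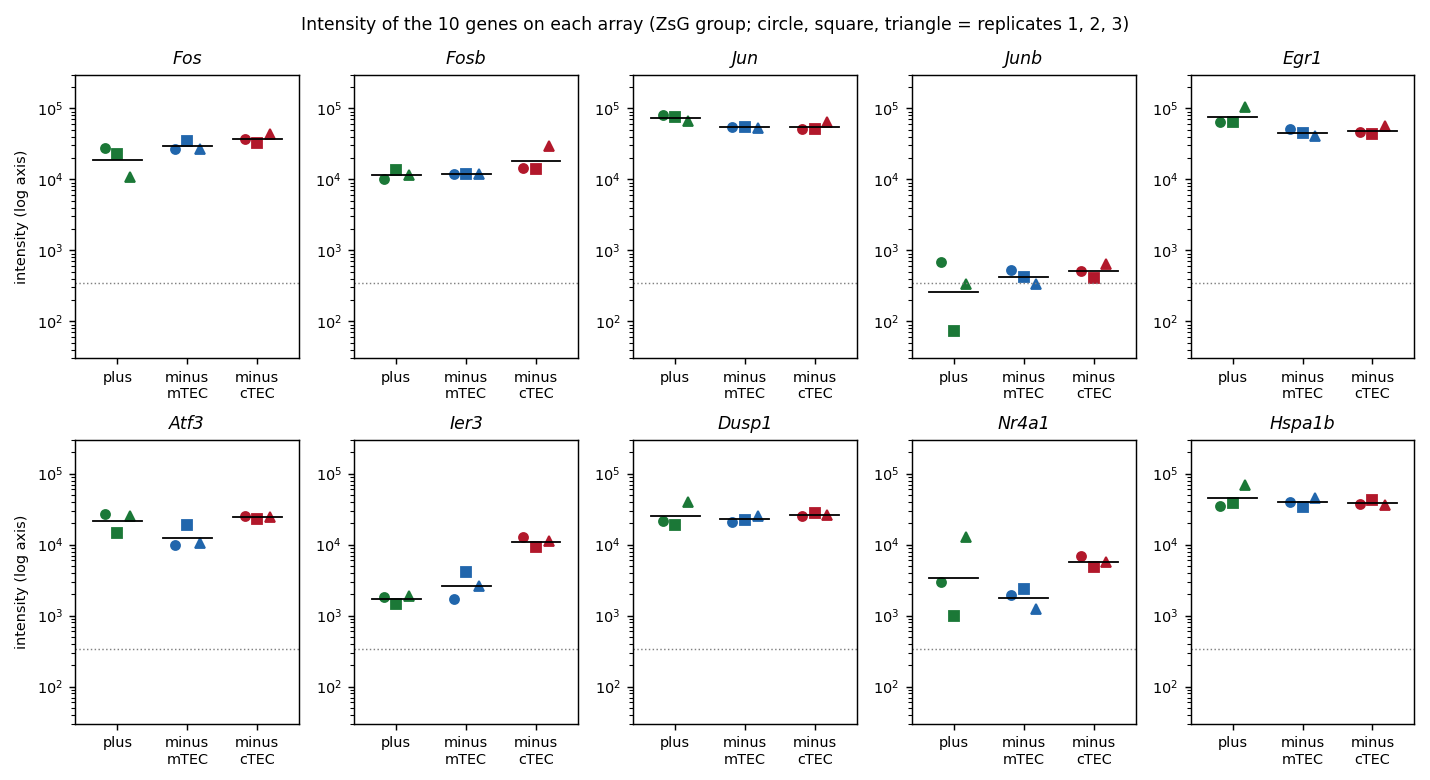
Intensity of the brightest probe set of each gene on the 9 arrays (y axis, log scale), with ZsG plus, ZsG minus mTEC and ZsG minus cTEC from left to right. Circles, squares and triangles are replicates 1, 2 and 3, bars are geometric means, and the dotted line marks 341, the highest control reading. Ier3 lies between 1461 and 4167 outside the cortical group and between 9371 and 12670 inside it. Over the 9 arrays Ier3 spans 8.67-fold, Nr4a1 13.0-fold and Junb 9.31-fold, and the other genes 1.56-fold to 4.10-fold.

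The spread within ZsG plus was the widest of the 3 groups in 6 of the 10 genes, as it was in 64.0% of all genes. The median SD of the members was 0.51 on the log2 scale in ZsG plus, against 0.21 for ZsG minus mTEC and 0.20 for ZsG minus cTEC. Over the 2425 genes at least as bright as Nr4a1 it was 0.85, 0.27 and 0.31. On replicate 3 of ZsG plus, Egr1, Dusp1, Nr4a1 and Hspa1b reached their highest values of all 9 arrays, at 0.93, 0.67, 1.98 and 0.73 above their own mean, while Fos reached its lowest, at −1.36. Replicate 2 of ZsG plus held the lowest values of Junb, Ier3, Dusp1 and Nr4a1. Over the 9 arrays, which share only 3 groups, Pearson's r was 0.82 between Dusp1 and Nr4a1, 0.81 between Dusp1 and Hspa1b, 0.76 between Atf3 and Nr4a1 and 0.72 between Jun and Egr1, and −0.87 between Fos and Hspa1b and −0.79 between Fos and Egr1. In the pairs of Dusp1 with Nr4a1 and Hspa1b, and of Fos with Hspa1b and Egr1, both genes had an extreme on replicate 3 of ZsG plus. Pearson's r without that array was not computed. Of the 45 pairs 29 had a positive r, with a median of 0.24.

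**Figure D3:**
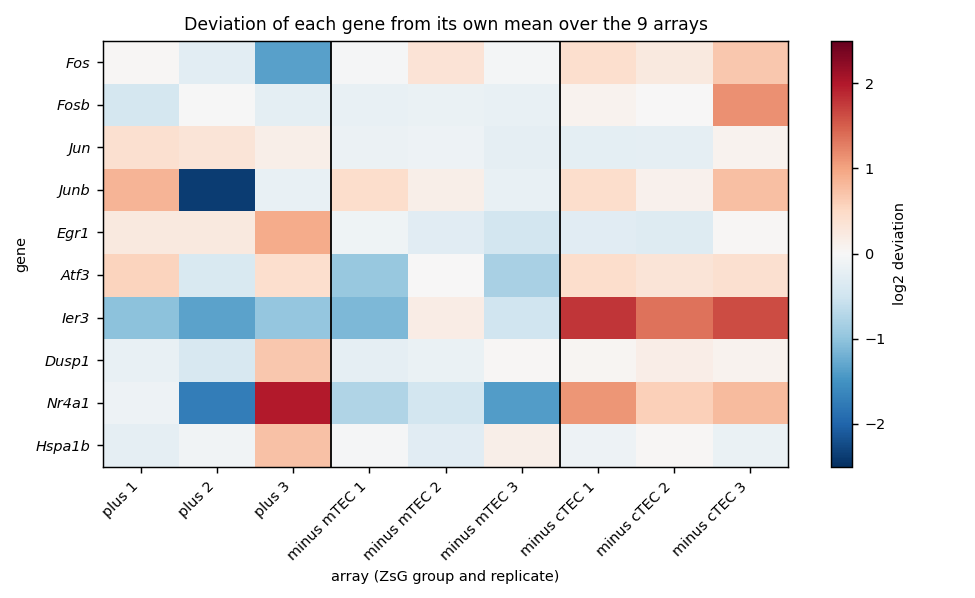
Log2 deviation of each gene (rows) from its own mean over the 9 arrays (columns), red above and blue below. The ZsG minus cTEC arrays are red for Ier3, from 1.35 to 1.79, and replicate 3 of ZsG plus is red for Nr4a1 at 1.98 and blue for Fos at −1.36.

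Between ZsG plus and ZsG minus mTEC none of the 10 genes passed the threshold, an adjusted p under 0.05 in limma over all genes, and 0 had an unadjusted p under 0.05. The background was small, since 0.28% of all genes passed (51 of 18194, or 0.022% higher and 0.258% lower) and 13.7% had an unadjusted p under 0.05. Jun and Egr1 did not overlap between the groups, both higher in ZsG plus, against 18.3% of all genes in either direction, 5.77% higher and 12.6% lower. The members' median difference was 0.17, against −0.35 over all genes, a shift that the authors' scaling leaves in and that median centring moved to 0.19. Apart from Junb, the members had mean intensities of 4431 to 61395. Array medians were at most 316 for ZsG plus and at least 366 for ZsG minus mTEC. The 95th percentiles ran the other way, at 8041 to 9576 and 7390 to 7796. No median difference over genes as bright as the members or lists was computed for any comparison. The part of brightness in such gaps was thus not tested. Of all calls 7.84% were higher in ZsG plus, or 25.8% with quantile normalization and 22.2% with median centring.

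Between ZsG plus and ZsG minus cTEC, Ier3 passed as 1 of 10 members, against 1.93% of all genes (352 of 18194, or 0.621% higher and 1.31% lower). It was also the only member with an unadjusted p under 0.05, against 18.9% of all genes. Groups did not overlap for 5 members, Jun and Egr1 higher and Fos, Fosb and Ier3 lower in ZsG plus, against 23.4% of all genes (9.82% higher and 13.6% lower). The members' median was −0.42, against −0.14 over all genes, and relative to that median Ier3 was −2.56. Of all calls 32.1% were higher, or 50.2% with quantile normalization and 59.7% with median centring.

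Between ZsG minus mTEC and ZsG minus cTEC, 0 of 10 members passed in limma, against 0.467% of all genes (85 of 18194, or 0.401% higher and 0.066% lower), and Ier3 alone had an unadjusted p under 0.05, against 12.3% of all genes. Groups did not overlap for 5 members, Fosb, Atf3, Ier3, Dusp1 and Nr4a1, all lower in ZsG minus mTEC, against 28.7% of all genes in either direction, 16.8% higher and 12% lower. The separation of Dusp1 was narrow, with 25281 as its highest ZsG minus mTEC reading and 25558 as its lowest ZsG minus cTEC reading. In 9 of the 10 genes the difference was below 0, against 46.2% of all genes, and the members' median was −0.33, against 0.09 over all genes. Of these, Jun and Egr1 were near 0, at −0.03 and −0.09, and reached 0.078 and 0.025 without single arrays. Genes read on the same arrays are not independent. The comparisons share groups of 3 arrays, so they are not independent of each other.

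**Figure D4:**
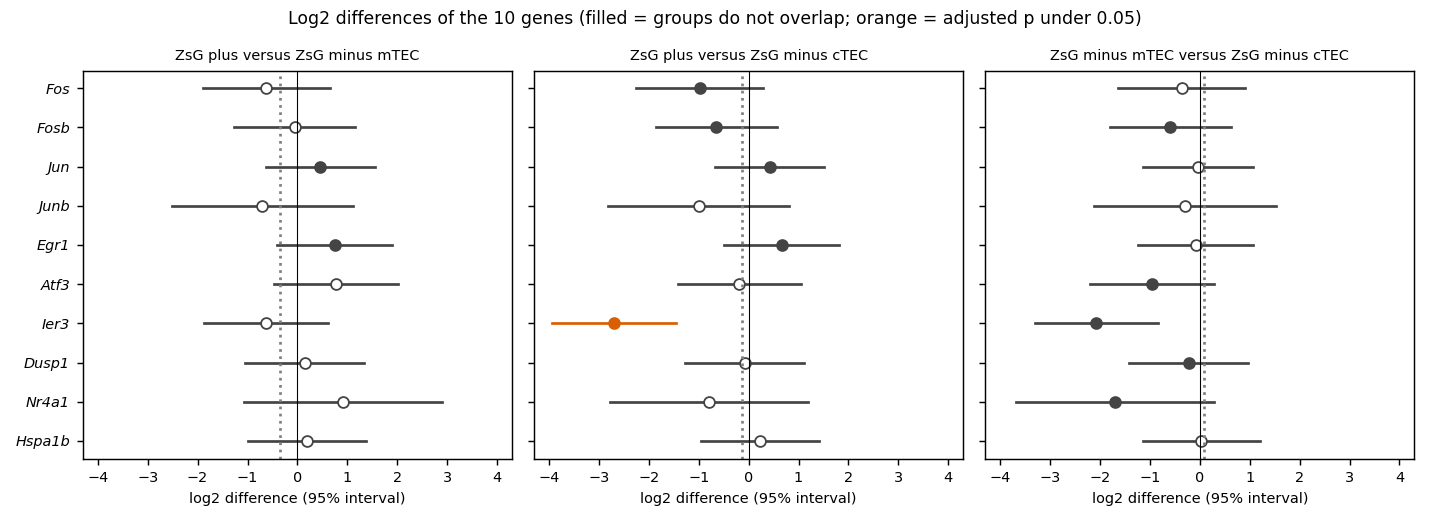
Log2 difference (x axis) of each gene with its 95% interval in the 3 comparisons. Filled points mark groups that do not overlap, orange an adjusted p under 0.05 and the dotted line the median of all genes. The interval of Ier3, −3.94 to −1.46, lies away from 0 in ZsG plus versus ZsG minus cTEC.

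Related genes from lists chosen beside the members were mostly not called. For every list below, the shares of all genes in the 3 comparisons were as follows. An adjusted p under 0.05 was reached by 0.28%, 1.93% and 0.467%, and an unadjusted one by 13.7%, 18.9% and 12.3%. Groups did not overlap, with ZsG plus higher, for 5.77% against ZsG minus mTEC and 9.82% against ZsG minus cTEC. Values of the list genes under other scalings are not reported here. Of 33 other immediate early genes, Ccn1, which encodes a secreted matrix protein, fell in ZsG plus relative to ZsG minus cTEC and none rose, while 6, 6 and 4 had an unadjusted p under 0.05 in the 3 comparisons. Ccn1 read 21.0, 341 and 26.7 in the ZsG plus replicates, 2778, 6561 and 3211 in those of ZsG minus mTEC, and 13497, 10230 and 11421 in those of ZsG minus cTEC. Its ZsG plus readings were near or at the edge of background, so the difference of −7.66 ± 1.01 (limma adjusted p = 0.0141) has no settled size. The list's median was 0.32, 0.30 and −0.20 for ZsG plus versus ZsG minus mTEC, ZsG plus versus ZsG minus cTEC and the medullary against the cortical reporter-negative group, against −0.35, −0.14 and 0.09 over all genes. Its brightest members were Zfp36, an mRNA decay factor, and Nfkbia, the inhibitor of NF-kappaB. Zfp36 read 102615, 83258 and 109342 in the ZsG plus replicates, above 65461 to 69861 in those of ZsG minus mTEC and 51224 to 55354 in those of ZsG minus cTEC. Nfkbia read 120963, 78577 and 131624, above 64351 to 71332 and 45458 to 55432 in the same order. Neither passed: Zfp36 differed by 0.53 ± 0.48 and 0.88 ± 0.48, and Nfkbia by 0.67 ± 0.50 and 1.10 ± 0.50, from ZsG minus mTEC and ZsG minus cTEC (limma adjusted p from 0.280 to 0.650).

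Among 12 other AP-1 subunits and partners 0 passed in limma in any comparison, while 1, 1 and 1 had an unadjusted p under 0.05 in the same 3 comparisons. Jund, the Jun protein that is usually present without a stimulus, was the brightest at 97927 for ZsG plus, 57762 for ZsG minus mTEC and 50982 for ZsG minus cTEC. Its ZsG plus arrays lay above all others, by 0.76 ± 0.51 and 0.94 ± 0.51 (limma adjusted p = 0.538 and 0.357). Groups were separated in that direction for 5.77% and 9.82% of all genes. Maff, a small Maf protein, differed by 0.37 ± 0.55 and 0.06 ± 0.55 from ZsG minus mTEC and ZsG minus cTEC (limma adjusted p = 0.790 and 0.966). The AP-1 list's median was −0.27, −0.12 and −0.26 in the 3 comparisons.

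Of 26 other heat shock genes 24 were measured and 0 passed in limma in any comparison, while 2, 3 and 1 had an unadjusted p under 0.05. The brightest were Hspa8, the constitutive Hsp70, and Dnaja1, its co-chaperone. Hspa8 read 97960, 98893 and 140804 in the ZsG plus replicates, above 76996 to 80232 in those of ZsG minus mTEC and 61276 to 80188 in those of ZsG minus cTEC. The differences were 0.50 ± 0.50 and 0.63 ± 0.50 (limma adjusted p = 0.673 and 0.523). Dnaja1 differed by 0.94 ± 0.49 and 0.77 ± 0.49, again with every ZsG plus array above every other (limma adjusted p = 0.434 and 0.424). The same separation was seen in 5.77% and 9.82% of all genes. Over the 24 genes, groups did not overlap with ZsG plus higher for 5 and lower for 2 against ZsG minus mTEC. Against ZsG minus cTEC this held for 6 higher and 1 lower. ZsG plus was lower without overlap for 12.6% and 13.6% of all genes. The list's median was −0.03, 0.28 and 0.04 in the 3 comparisons.

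The signalling genes above and beside the members showed no calls. Of 15 upstream kinases and factors 13 were measured, and 0 passed in limma, while 2, 4 and 1 had an unadjusted p under 0.05. Their median was −0.72 and −1.50 in ZsG plus versus ZsG minus mTEC and versus ZsG minus cTEC, and −0.87 in ZsG minus mTEC versus ZsG minus cTEC, below the medians of all genes. Mapk14, which encodes p38 alpha, had levels of 16643 for ZsG plus, 5598 for ZsG minus mTEC and 7338 for ZsG minus cTEC, with differences of 1.57 ± 0.61 and 1.18 ± 0.61 for ZsG plus (limma adjusted p = 0.319 and 0.335). Creb1, the factor that binds TGACGTCA, had levels of 1186, 3568 and 9051, with differences of −1.59 ± 0.97 and −2.93 ± 0.97 (limma adjusted p = 0.504 and 0.155). Among 13 other MAP kinase phosphatases and feedback inhibitors 0 passed, while 1, 3 and 1 had an unadjusted p under 0.05. Dusp16, a phosphatase of JNK and p38, had levels of 12235 for ZsG plus, 3706 for ZsG minus mTEC and 3476 for ZsG minus cTEC, and differed by 1.72 ± 0.59 and 1.82 ± 0.59 (limma adjusted p = 0.265 and 0.148). Dusp5, a nuclear phosphatase of ERK, had levels of 9138, 5118 and 10386 in the same order. The median of the phosphatase list was −0.21, −0.18 and 0.03.

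The integrated stress response, which Atf3 joins downstream of Atf4, had the highest list medians against the cortex. All 10 of its listed genes were measured and 0 passed in limma, while 0, 1 and 2 had an unadjusted p under 0.05. The median was 0.60 for ZsG plus versus ZsG minus cTEC and 0.80 with ZsG minus mTEC against ZsG minus cTEC, and −0.47 for ZsG plus versus ZsG minus mTEC. Atf4 had levels of 14355, 10270 and 7121 in ZsG plus, ZsG minus mTEC and ZsG minus cTEC, and the first and last of these differed by 1.01 ± 0.53 (limma adjusted p = 0.343). Ppp1r15a, the phosphatase subunit that ends the response, had levels of 7664, 4691 and 4642. Its ZsG plus arrays lay above all others, by 0.71 ± 0.53 and 0.72 ± 0.53 (limma adjusted p = 0.575 and 0.490), as for 5.77% and 9.82% of all genes.

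**Figure D5:**
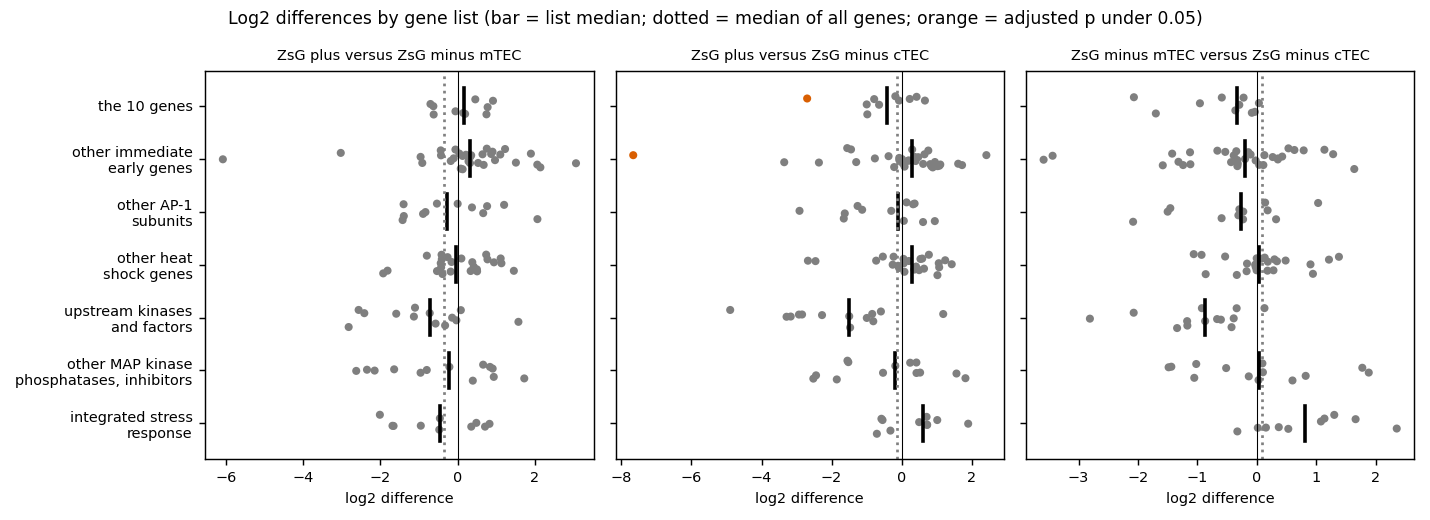
Log2 difference (x axis) of each measured gene of the 10 genes and of 6 related lists (rows) in the 3 comparisons, with the list median as a bar and the median of all genes dotted. Orange marks an adjusted p under 0.05, which 2 genes reach, Ier3 at −2.70 and Ccn1 at −7.66, both in ZsG plus versus ZsG minus cTEC.

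The mean profile of the 10 genes, each taken as its deviation from its own mean, was 0.00, −0.60 and 0.21 in the ZsG plus replicates, −0.31, −0.08 and −0.36 in those of ZsG minus mTEC, and 0.37, 0.23 and 0.54 in those of ZsG minus cTEC. Among 10906 other genes with a mean intensity above the 40th percentile, the profiles most like it over the 9 arrays were those of Ablim1 (Pearson's r of 0.98), Fstl1 (0.97), Rab40c (0.93), St8sia4 (0.93) and Aebp1 (0.93). These are the highest of many correlations over few arrays that fall in 3 groups, and they are a description. Ablim1 read 6566, 2906 and 7833 in the ZsG plus replicates, 3815, 6257 and 3831 in those of ZsG minus mTEC, and 9734, 8174 and 9578 in those of ZsG minus cTEC. Like the members' mean, it was lowest on replicate 2 of ZsG plus and high on every cortical array. The members did not share this profile evenly. On that ZsG plus array Junb, Nr4a1 and Ier3 lay lowest, at −2.37, −1.72 and −1.33, and the members' median deviation was −0.32. Jun and Egr1 were below their own means on cortical replicates 1 and 2.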

How the data were processed

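RNA from 9 samples was cleaned on columns with a DNase step, and cDNA was made from 5 ng with the WT-Ovation Pico system, per the labels' protocols. The deposited values are probe set intensities on a linear scale, and the software behind them is not given in the sources used here. Every array had a mean of 1250 after removal of 2% at each end, so the authors' deposited intensities share this scaling, which leaves medians free. On ZsG plus arrays the 95th percentile was 8041 to 9576. It was 7390 to 7796 on ZsG minus mTEC arrays and 7335 to 7669 on ZsG minus cTEC arrays. Precision is limited by the number of arrays.

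Log2 intensities without an offset were compared by limma 3.58.1 in R 4.3.3 (lmFit and eBayes, all 9 arrays, 6 residual and 3.21 prior degrees of freedom). Each gene had 1 spread shared by the 3 groups. The errors between the reporter-negative groups thus also carry the spread of ZsG plus. Each of 18194 genes was represented by its brightest probe set among the 34958 with 1 symbol. Tests were two-sided, with Benjamini-Hochberg adjustment over all genes, a threshold of 0.05 and steps tested on simulated data. Replicates are not stated to come from separate animals, so p-values cover the spread of these samples, perhaps a technical one.

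The members and lists were chosen with earlier results of these data known. Genes named are the members, Hspa1a, the 2 brightest and up to 3 called genes in each direction of each list, and the 5 genes most like the members' mean profile. Of the list genes 12 were not matched and are not analysed here. Alternatives changed the probe sets, the filter, the offset, the scaling, the weights, the block and the arrays fitted. One further choice, the probe set brightest by mean log2, was made after seeing the data. Figures were drawn with matplotlib 3.10.9.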

Additional observations from a re-analysis of the deposited data

How the results depend on the processing

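Of the values for single genes under settings other than leaving out an array, 279 kept their direction and their side of the threshold. Another 9 changed direction and 2 newly passed. These counts leave out Ier3 in ZsG plus versus ZsG minus cTEC, the only called value, which is given next. The values counted had not passed as reported, so none could lose a call. The log2 difference of Ier3 in ZsG plus versus ZsG minus cTEC was no longer past the threshold, leaving 0 members past it, with all probe sets of 1 symbol (−2.70, adjusted p = 0.0545), all probe sets (−2.70, 0.0675), median centring (−2.16, 0.0912), only the 6 arrays of both groups (−2.70, 0.142), array weights (−2.74, 0.109) and the replicate block (−2.70, 0.104). Leaving out single arrays gave −2.82 to −2.59 and 0 to 1 members past. In ZsG minus mTEC versus ZsG minus cTEC, 1 member, Ier3, passed with an offset of 100 (−2.03, adjusted p = 0.0433) and with array weights (−2.05, 0.0225).

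Signs turned with quantile normalization for Dusp1 and Hspa1b in ZsG plus versus ZsG minus mTEC (−0.13 and −0.12), Jun and Hspa1b in ZsG plus versus ZsG minus cTEC (−0.10 and −0.25) and Hspa1b in ZsG minus mTEC versus ZsG minus cTEC (−0.13). With median centring they turned for Fosb in ZsG plus versus ZsG minus mTEC (0.48) and for Atf3 and Dusp1 in ZsG plus versus ZsG minus cTEC (0.36 and 0.46), and with array weights for Jun in ZsG minus mTEC versus ZsG minus cTEC (0.0024). The median of all genes moved to −0.09, 0.09 and 0.09 with quantile normalization and to 0.19, 0.40 and 0.10 with median centring in the 3 comparisons. Leaving out single arrays turned the sign in ZsG plus versus ZsG minus mTEC for Fosb (−0.17 to 0.048), Junb (−1.41 to 0.20), Dusp1 (−0.18 to 0.36), Nr4a1 (−0.056 to 1.80) and Hspa1b (−0.10 to 0.37). In ZsG plus versus ZsG minus cTEC it did so for Atf3 (−0.36 to 0.10), Dusp1 (−0.40 to 0.14), Nr4a1 (−1.76 to 0.095) and Hspa1b (−0.068 to 0.41), and in ZsG minus mTEC versus ZsG minus cTEC for Jun (−0.10 to 0.078), Egr1 (−0.17 to 0.025) and Hspa1b (−0.064 to 0.15).

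The number of genes past the threshold in ZsG plus versus ZsG minus mTEC, 51, was 82 with all probe sets of 1 symbol, 132 with the offset, 31 with quantile normalization, 18 with median centring, and 0 in limma with 6 arrays, array weights or the replicate block (1829, 1740 and 2366 at an unadjusted p under 0.05). It was 0 to 288 without single arrays, and 0 without any 1 ZsG minus mTEC array (1795 to 1901 unadjusted). In ZsG plus versus ZsG minus cTEC, 352 became 536 with all probe sets of 1 symbol, 572 with the filter at the 40th percentile, 879 with the offset, 0 with 6 arrays (2749 unadjusted), 48 with weights, 25 with the block and 0 to 829 without single arrays. It was 0 without ZsG minus cTEC replicate 1 or 2 (2522 and 2466 unadjusted) and 32 without replicate 3. In ZsG minus mTEC versus ZsG minus cTEC, 85 became 43 with all probe sets of 1 symbol, 14 with all probe sets, 160 with the filter, 369 with the offset, 163 with quantile normalization, 555 with 6 arrays, 1235 with weights, 0 with the block (2174 unadjusted) and 0 to 0 without single arrays (1688 to 1823 unadjusted). Arrays of the same replicate number did not deviate together (r from −0.011 to 0.017), so the block rests on a shared number only. Taking the probe set brightest by mean log2, chosen after seeing the data, gave 40, 317 and 114 genes and an adjusted p of 0.0450 for Ier3. The cause of these changes was not tested, and Junb readings near background have no reliable order.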

Other observations

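Further early genes of the lists are named here after their values were seen. Nr4a3, a relative of Nr4a1, read 7283, 6969 and 9441 in the ZsG plus replicates, 630, 849 and 1541 in those of ZsG minus mTEC, and 7918, 18757 and 7064 in those of ZsG minus cTEC. The log2 difference was 3.06 ± 0.62 for ZsG plus against ZsG minus mTEC and −3.44 ± 0.62 for the medullary against the cortical reporter-negative group, without passing over all genes (limma adjusted p = 0.0894 and 0.0535). Nr4a2, the remaining gene of that receptor family, read 4624, 2133 and 626, 1358, 469 and 757, and 7805, 14029 and 7676 in the same groups, with −3.59 ± 0.81 in ZsG minus mTEC versus ZsG minus cTEC (limma adjusted p = 0.0934). The replicates of these groups did not overlap for either gene, as for 28.7% of all genes (12% lower in ZsG minus mTEC). Thymocyte and T cell markers summed to 8258 to 14015 in ZsG minus mTEC, against 54568 to 79998 in ZsG minus cTEC, and their part in these differences was not tested.

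Ptgs2, which encodes the inducible cyclooxygenase, ran the other way. It read 32726, 31943 and 39331 in the ZsG plus replicates and 35748, 31396 and 31005 in those of ZsG minus mTEC, against 10153, 9376 and 12112 in those of ZsG minus cTEC (1.72 ± 0.49 and 1.64 ± 0.49 relative to the cortex, limma adjusted p = 0.109 and 0.188). Hsph1, an Hsp110 chaperone, read 49789, 60961 and 166266 in the ZsG plus replicates, above 26735 to 32860 in those of ZsG minus mTEC and 24731 to 34696 in those of ZsG minus cTEC, and was highest on the same ZsG plus array as Hspa1b (1.45 ± 0.60 and 1.42 ± 0.60, limma adjusted p = 0.342 and 0.246). Groups were separated with ZsG plus higher for 5.77% and 9.82% of all genes.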
